A study of Mus musculus with 4 samples.

Results

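Cartilage and joint matrix genes were followed through 4 single-cell RNA libraries of the mouse digit. The 10 genes were taken by name: Sox9, Acan, Hapln1, Chad, Cilp, Cilp2, Comp, Prg4, Snorc and Matn3. Each was found once among the 32285 genes counted, and none was used to cluster or name cells. All mice were wild-type FVB/NJ animals of 8 weeks. The groups were an unamputated digit and digits collected 12, 17 and 28 days post-amputation (dpa) through the middle of the second phalanx (P2), a level from which the digit does not regrow and forms fibrous tissue, per the labels. Animals of both sexes were pooled per the labels, and live cells were sorted after digestion with trypsin and collagenase. With a single library for every time point there is no test and no replicate check of any difference. Intervals are exact 95% intervals that cover counting error only.

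Cartilage matrix is built on aggrecan, a proteoglycan laden with chondroitin sulfate that hangs on hyaluronan chains and draws in water. Link protein fixes aggrecan to hyaluronan, while matrilins, COMP and chondroadherin tie these aggregates to collagen fibrils and to cells. Sox9 encodes the transcription factor that switches on much of this programme in chondrocytes. Joint surfaces are lubricated by lubricin, the Prg4 product, made by superficial chondrocytes and by lining cells of the synovium. Several of these proteins are also made by tendon and ligament cells where they are compressed, and by periosteum.

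Promoters were read from RefSeq (GRCm38.p6), with 250 bases before and 50 after each start. Of the 10 genes 6 were matched, and Sox9, Comp, Prg4 and Snorc were not. The promoters of Chad and Cilp2, higher at 28 dpa, and of Matn3, lower at 28 dpa, are printed 5′ to 3′ on the strand of the gene, with capitals marking a SOX-type hexamer.
Chad, chr11:94564797-94565096, + strand: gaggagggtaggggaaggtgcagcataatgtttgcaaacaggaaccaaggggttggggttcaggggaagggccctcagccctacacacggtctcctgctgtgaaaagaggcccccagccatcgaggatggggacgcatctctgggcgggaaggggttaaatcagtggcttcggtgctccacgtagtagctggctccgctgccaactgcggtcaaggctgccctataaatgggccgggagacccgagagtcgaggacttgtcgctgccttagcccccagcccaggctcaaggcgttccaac
Cilp2, chr8:69887343-69887642, − strand: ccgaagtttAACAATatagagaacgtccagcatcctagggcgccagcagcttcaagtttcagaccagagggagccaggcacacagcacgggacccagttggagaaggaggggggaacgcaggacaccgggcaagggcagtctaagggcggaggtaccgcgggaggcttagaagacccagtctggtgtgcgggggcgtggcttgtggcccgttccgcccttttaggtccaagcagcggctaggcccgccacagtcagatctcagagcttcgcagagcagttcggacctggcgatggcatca
Matn3, chr12:8947679-8947978, + strand: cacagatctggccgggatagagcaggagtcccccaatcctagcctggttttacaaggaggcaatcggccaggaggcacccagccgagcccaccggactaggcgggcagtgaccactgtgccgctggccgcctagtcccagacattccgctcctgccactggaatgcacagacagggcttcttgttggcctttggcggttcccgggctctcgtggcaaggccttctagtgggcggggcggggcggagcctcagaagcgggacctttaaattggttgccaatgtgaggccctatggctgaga

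AACAAT and ACAAAG, both SOX-type hexamers, and TGTGGT, a RUNX-type hexamer, were searched on both strands. Cilp2 held 1 AACAAT that began 241 bases before the start, and Chad and Matn3 held none of the 3 hexamers. Hapln1 held 1 TGTGGT, at 160 bases before the start, Cilp held 1 on the opposite strand at 205 bases, and Acan held none. The RefSeq start was the GENCODE gene start for Chad, Cilp and Matn3. It differed for Acan, whose window ends before the GENCODE gene, and for Hapln1 and Cilp2, whose windows, matches included, lie inside the GENCODE gene. Among 32851 promoters of the same length, AACAAT was found in 10.7%, ACAAAG in 18.7% and TGTGGT in 16.8%. A match is a run of letters and not a binding site, and a window without one says nothing about the factor.

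The libraries held 16045, 8813, 10514 and 15253 cell barcodes in the order unamputated, 12, 17 and 28 dpa, the order kept below, and between 92313847 and 197140774 unique molecular identifiers (UMIs). After filtering, 10394, 6514, 7918 and 10125 cells remained. Pairs of libraries shared between 19 and 87 barcodes, at most 0.570% of a library. The 12 dpa library stood apart in sex-linked genes: Xist was at 458 CPM (a counts-per-million scale over the UMIs of the same cells) there and at most 0.153 CPM in the others, while 4 Y-linked genes together had 0.228 CPM there and between 244 and 350 elsewhere. Sex and time cannot be told apart in comparisons with 12 dpa. Doublets, barcodes that hold 2 cells, were taken as the highest Scrublet scores at a fixed rate of 0.8% per 1000 barcodes. This bears on several of the 10 genes, so values are also given under the automatic threshold of Scrublet, an alternative chosen after seeing the data, and with no removal. Positions are on GRCm38.

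Mesenchymal cells were the clusters named fibroblast-like, tenocyte-like or osteoblast-like from markers that did not include the 10 genes. They numbered 1913, 2182, 3003 and 3388, with median UMIs per cell of 20248, 15036, 11863 and 8364.5. Their makeup differed: fibroblast-like cells numbered 716, 240, 1831 and 2460, tenocyte-like cells 932, 1935, 774 and 549, and osteoblast-like cells 265, 7, 398 and 379. No cluster of the kept cells was named chondrocyte-like. The defining chondrocyte marker Col2a1 had 512, 1119, 65 and 37 UMIs, and 20, 9, 5 and 1 kept cells carried at least 3 of 9 chondrocyte markers. Matn1, another of these markers, had 2, 0, 1 and 1 UMIs. All 10 genes were nevertheless detected in mesenchymal cells of every library.

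Several members were concentrated in a few of the 23 mesenchymal clusters, called here by their leading genes. The Tagln and Acta2 cluster was tenocyte-like and had 262, 810, 99 and 8 cells. It was named from 6 of 7 tenocyte markers detected, of which 1 was among its 10 leading genes. The Igf2 and H19 cluster, also tenocyte-like, had 177, 40, 291 and 102 cells, with 4 of 7 tenocyte markers detected and 0 among its leading genes. The Fibin and Fmod cluster, again tenocyte-like, had 6, 18, 50 and 351 cells, with 6 of 7 detected and 4 leading. The Pdzrn4 and Mmp13 cluster was osteoblast-like and had 136, 12, 330 and 275 cells. Levels within a cluster are given for libraries with at least 50 of its cells.

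Members went different ways after amputation. In mesenchymal cells at 28 dpa, Prg4, Chad and Cilp2 were at least 2-fold higher than in the unamputated library and Matn3 was at least 2-fold lower, of 9 members with at least 5 CPM in either library. Snorc was below that level at 17 and 28 dpa. Among all 10851 genes with that level, 3.35% were at least 2-fold higher and 5.67% at least 2-fold lower at 28 dpa. At 17 dpa, Chad and Prg4 were higher and Matn3 lower, of 9, against 1.39% and 1.31% of 10857 genes. At 12 dpa, Snorc alone was higher and no member lower, of 10, against 0.623% and 4.67% of 10759 genes. The Snorc call rests on 1 cell that held 182 of 192 UMIs: its log2 ratio was -0.24 without the 5 highest cells of each library, and the level was 1.22-fold with no doublets removed, 1.23-fold under the automatic doublet threshold and 2.78-fold under that threshold without the rare clusters described with Snorc and Prg4. The median log2 ratio of the measured members came to 0.20, -0.56 and 0.63 for 12, 17 and 28 dpa, beside -0.19, -0.03 and -0.11 for all genes. Log2 ratios and 2-fold calls were taken after adding 1 CPM to each level. Values given as a fold were taken without it, so the 2 kinds differ most for genes of low level. Scaling by the median ratio of 5763 well-detected genes instead of the total moved the scale by -0.17 at 12 dpa and -0.11 at 28 dpa on the log2 scale.

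**Figure D1:**
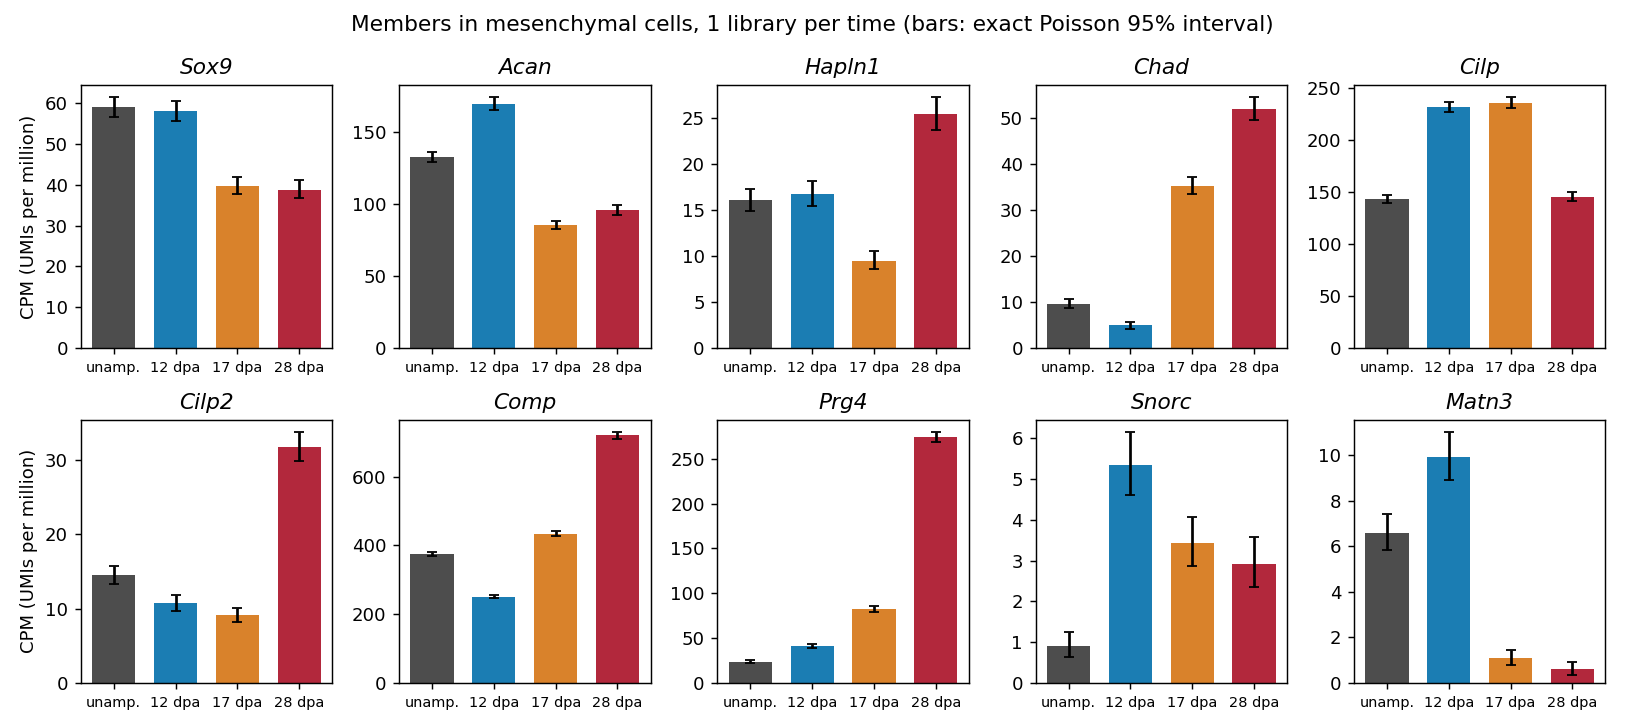
CPM of each member in mesenchymal cells (y axis, linear, from 0) in the unamputated, 12, 17 and 28 dpa libraries (x axis), 1 library per bar, with exact Poisson 95% intervals. Prg4 reaches 273.9 CPM and Chad 51.99 CPM at 28 dpa, while Matn3 is at 1.07 and 0.590 CPM at 17 and 28 dpa.

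Sox9, at chr11:112782224-112787760 (+ strand), was at 59.0 CPM (56.7 to 61.4), 58.0 CPM (55.6 to 60.6), 39.8 CPM (37.8 to 41.8) and 38.8 CPM (36.7 to 41.0) in mesenchymal cells. The first 2 libraries had overlapping intervals, as had the last 2, and the later pair lay below the earlier. Within clusters the order was mixed: of 6 with at least 50 cells in both libraries, Sox9 was higher at 28 dpa in 3, each with an interval above 1, and lower in 3, of which 1 had an interval below 1. The Igf2 and H19 cluster was among the former, with 75.9 CPM in the unamputated library and 192.9 CPM at 28 dpa, 2.54-fold (2.02 to 3.18). Only 42.0%, 74.4%, 64.7% and 39.6% of the Sox9 UMIs of kept cells were mesenchymal. Keratinocyte-like cells had 125.2, 71.6, 89.7 and 107.2 CPM, and the cluster of them led by Lgr5 and Cxcl14 had 350.5 to 559.0 CPM. Sox9 is known in hair follicle stem cells as well as in cartilage.

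Acan, at chr7:79053483-79115099 (+ strand), encodes aggrecan itself. Its level in mesenchymal cells was 132.8 CPM (129.3 to 136.3), 169.7 CPM (165.5 to 174.0), 85.6 CPM (82.7 to 88.5) and 96.0 CPM (92.6 to 99.4), highest at 12 dpa and lowest at 17 dpa, with no overlap between any pair of intervals and no library 2-fold from the unamputated one. The Fibin and Fmod cluster had 624.2 CPM of Acan and held 68.1% of Acan UMIs at 28 dpa, whereas the tenocyte-like cluster led by Tagln and Acta2 held 35.8% in the unamputated library and 52.5% at 12 dpa. Cells with both Acan and Hapln1 made up 73.8%, 79.8%, 63.0% and 74.9% of the mesenchymal cells with Hapln1, where 41.1%, 48.4%, 23.3% and 16.5% of all mesenchymal cells had Acan.

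Acan also appeared outside the mesenchymal cells. Vascular smooth muscle-like cells had 169.6, 86.9, 131.8 and 97.0 CPM, as high in the unamputated library as mesenchymal cells, while pericyte-like cells had between 2.94 and 7.12 CPM and vascular endothelial-like cells at most 1.16 CPM. Of the other members, Comp reached 16.6 CPM in vascular smooth muscle-like cells at 28 dpa, and the rest were at most 5.14 CPM there in any library. The Acan level in these cells was 0.572-fold (0.497 to 0.656) at 28 dpa relative to the unamputated library.

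At 28 dpa, Cilp2 and Hapln1 were concentrated in 1 cluster. Cilp2, at chr8:69880369-69887687 (− strand), encodes a cartilage intermediate layer protein, and Hapln1, at chr13:89539796-89611652 (+ strand), encodes the link protein of aggrecan. Cilp2 was at 14.5 CPM (13.3 to 15.7), 10.7 CPM (9.69 to 11.9), 9.13 CPM (8.19 to 10.1) and 31.7 CPM (29.8 to 33.7). Hapln1 was at 16.1 CPM (14.9 to 17.3), 16.7 CPM (15.4 to 18.1), 9.49 CPM (8.54 to 10.5) and 25.4 CPM (23.7 to 27.2). For both genes 28 dpa was highest and 17 dpa lowest, with overlapping intervals between 12 and 17 dpa for Cilp2 and between the unamputated library and 12 dpa for Hapln1.

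At 28 dpa, the tenocyte-like cluster led by Fibin, Fmod and Tspan2 held 79.9% of the Cilp2 and 79.5% of the Hapln1 UMIs of kept cells. It had 6, 18, 50 and 351 cells. Between 17 and 28 dpa Cilp2 within it went from 26.2 to 223.5 CPM, 8.51-fold (5.53 to 13.8), while Hapln1 was at 176.2 and 188.2 CPM, a ratio of 1.07 (0.890 to 1.29). The interval of the latter includes 1, so a difference was not detectable at this depth. In the unamputated library 58.4% of Cilp2 UMIs came instead from the Igf2 and H19 cluster, where Cilp2 was 113.4 CPM, and 72.9 CPM at 28 dpa.

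**Figure D2:**
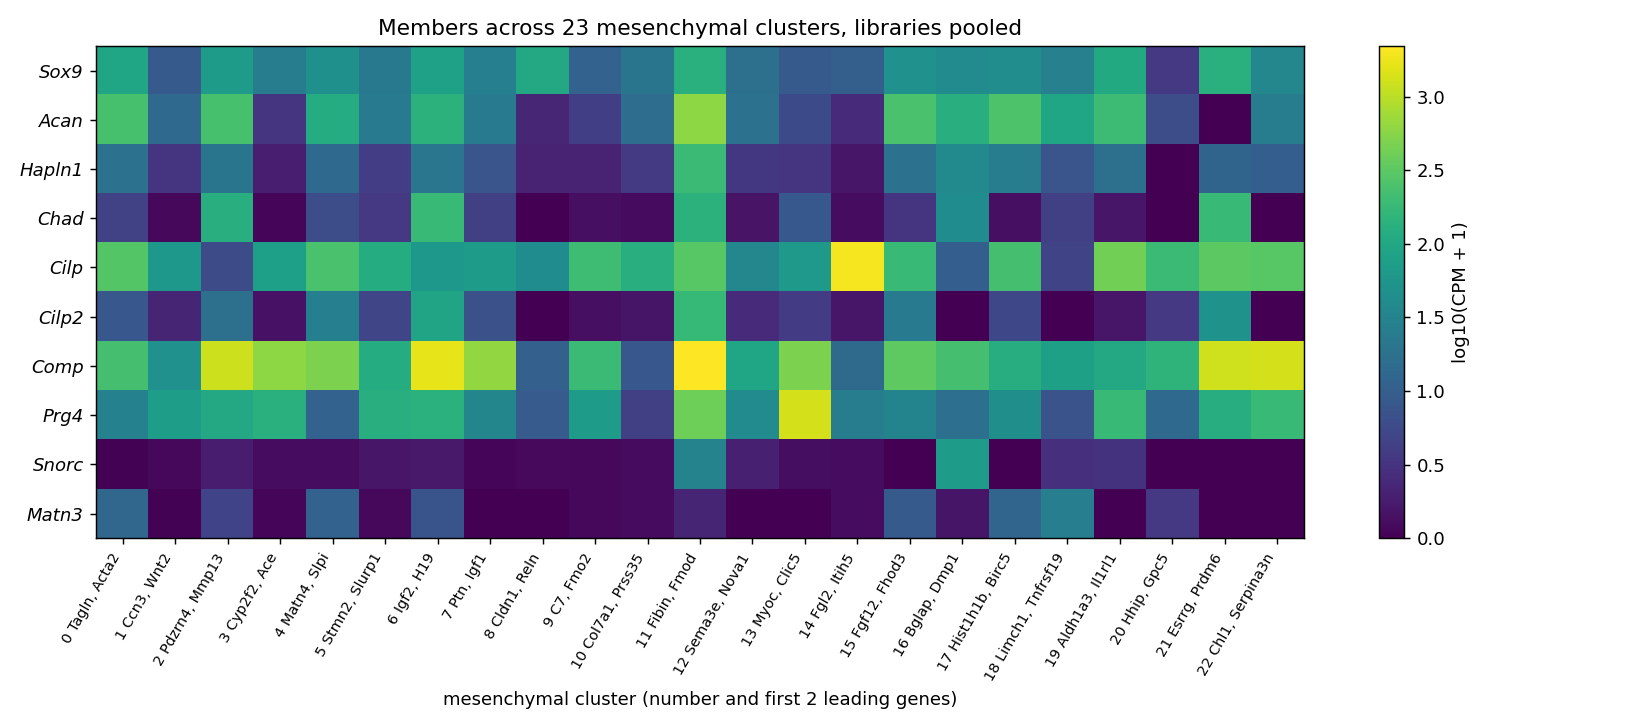
Level of each member (rows; colour, log10 of CPM plus 1) in the 23 mesenchymal clusters (columns, named by number and 2 leading genes), with the 4 libraries pooled. Cilp is brightest in the Fgl2 and Itih5 cluster, Prg4 in the Myoc and Clic5 cluster, and Acan, Hapln1 and Cilp2 in the Fibin and Fmod cluster.

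Chad, at chr11:94565047-94569127 (+ strand), encodes chondroadherin, a leucine-rich repeat protein that binds collagen and integrins. Its level in mesenchymal cells was 9.66 CPM (8.75 to 10.7), 4.92 CPM (4.22 to 5.70), 35.4 CPM (33.5 to 37.3) and 51.99 CPM (49.5 to 54.5). The 17 and 28 dpa libraries were above the first 2 without overlap of intervals, and 28 dpa stood 5.38-fold (4.82 to 6.01) above the unamputated library. Chad overlaps Acsf2, which lies on the opposite strand. Macrophage or monocyte-like and vascular endothelial-like cells had at most 0.841 CPM of Chad in any library.

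A few clusters carried most of Chad. The tenocyte-like cluster led by Igf2, H19 and Eya2 had 51.1 CPM of Chad in the unamputated library, 307.7 CPM at 17 dpa and 520.4 CPM at 28 dpa, which is 10.2-fold (8.41 to 12.4) the first. The osteoblast-like cluster led by Pdzrn4 and Mmp13 was at 62.4 CPM and 55.8 CPM in the unamputated and 17 dpa libraries and at 362.3 CPM at 28 dpa. In the unamputated library the Igf2 and H19 cluster held 40.0% of the Chad UMIs of kept cells and the Pdzrn4 and Mmp13 cluster 37.6%. At 28 dpa these clusters held 18.8% and 40.2%, and the Fibin and Fmod cluster held a further 32.2%. Fibroblast-like cells had 3.49 CPM in the unamputated library and 2.21 CPM at 28 dpa. At 28 dpa, 91.2% of mesenchymal cells with a Chad UMI also had one of Comp, where 44.8% of all mesenchymal cells did.

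Comp, at chr8:70373558-70382066 (+ strand), encodes cartilage oligomeric matrix protein, a pentameric thrombospondin that organises collagen fibrils in cartilage and tendon. It was at 374.7 CPM (368.8 to 380.6), 250.7 CPM (245.6 to 255.9), 434.3 CPM (427.7 to 441.0) and 719.6 CPM (710.4 to 728.9). The 28 dpa level was 1.92-fold (1.88 to 1.96) the unamputated one, just short of 2-fold, and became 2.17-fold (2.13 to 2.21) under the automatic doublet threshold. The clusters that carried Chad also carried the higher Comp level: in the Igf2 and H19 cluster Comp was 1191 CPM in the unamputated library and 4597 CPM at 28 dpa, and in the Pdzrn4 and Mmp13 cluster 893.7 and 2691 CPM. Of 6 clusters with at least 50 cells in both libraries, Comp was higher at 28 dpa in 5, each with an interval above 1, and lower in the Ccn3 and Wnt2 cluster, at 38.4 and 27.6 CPM. The 5 included the Cldn1 and Reln cluster and the Fgl2 and Itih5 cluster. Comp there was only 9.52 and 13.4 CPM with the libraries pooled, near its level in cells that should lack it. In the fibroblast-like class as a whole Comp was 336.5 CPM in the unamputated library and 207.7 CPM at 28 dpa, 0.617-fold (0.593 to 0.643), while the clusters that made up the class differed: the Ptn and Igf1 cluster, with 634.8 CPM of Comp in the unamputated library, went from 289 to 28 cells. Comp in cells that should lack it reached 10.5 CPM in macrophage or monocyte-like and 10.6 CPM in vascular endothelial-like cells at 28 dpa.

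Matn3, at chr12:8947929-8972028 (+ strand), encodes matrilin-3, a filament-forming adaptor of growth cartilage. It was at 6.60 CPM (5.85 to 7.43), 9.93 CPM (8.93 to 11.01), 1.07 CPM (0.769 to 1.45) and 0.590 CPM (0.355 to 0.921). The later libraries lay below the earlier, at 0.162-fold (0.114 to 0.226) and 0.0893-fold (0.0530 to 0.142) of the unamputated level, with 41 and 19 UMIs. In the unamputated library 34.8% of Matn3 UMIs were in the osteoblast-like cluster led by Limch1 and Tnfrsf19, which had 122 cells and 31.7 CPM there and 59 cells with no Matn3 UMI at 17 dpa. In the tenocyte-like cluster led by Matn4 and Slpi the order differed, with 9.12 CPM in the unamputated library and 21.04 CPM at 17 dpa from 25 UMIs.

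Snorc, at chr1:87470271-87475482 (+ strand), encodes a small membrane proteoglycan of chondrocytes. It was at 0.909 CPM (0.643 to 1.25), 5.34 CPM (4.61 to 6.15), 3.43 CPM (2.86 to 4.07) and 2.92 CPM (2.36 to 3.57), from 38, 192, 131 and 94 UMIs. Very few cells held them: 1 cell had 182 of the 192 UMIs at 12 dpa, and the 5 highest cells held 97.9% at 12 dpa and 93.9% at 17 dpa. Kept cells with at least 3 chondrocyte markers held 53.1%, 93.0%, 85.0% and 28.6% of Snorc UMIs. Without the 5 highest cells in each library Snorc was at 0.312 CPM in the unamputated library and 0.112 CPM at 12 dpa, and the higher level at 12 dpa turned into a lower one. Among the 7 osteoblast-like cells of the 12 dpa library, 2 cells held all 185 Snorc UMIs, and the 7 cells held 1097 of the 1119 UMIs of Col2a1.

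Snorc also changed with the removal of doublets. Under the automatic threshold it was at 5.16 CPM in the unamputated library and 6.36 CPM at 12 dpa, 1.23-fold (1.04 to 1.47), and at 28 dpa 0.543-fold (0.432 to 0.680) the unamputated level. At 17 dpa the 3.77-fold (2.61 to 5.56) of the fixed rate became 0.600-fold (0.485 to 0.739) under this threshold. A cluster of 12 cells, all from the unamputated library, was then named chondrocyte-like, with Col2a1, Col9a3 and Col9a2 leading and 6 of 9 markers detected. The fixed rate had removed all 12 cells, and with no doublets removed no cluster was named chondrocyte-like. Every one of the 12 cells had Snorc, at 2023 CPM, Chad, at 1369 CPM, and Comp, at 1847 CPM, while Acan was at 75.4 CPM and Prg4, Cilp2 and Matn3 had no UMI. These cells held 53.5% of the Snorc UMIs of that library. Without them and the joint lining-like cluster, Snorc was at 2.29 CPM in the unamputated library under this threshold. The 12 dpa level was then 2.78-fold (2.23 to 3.46), 17 dpa 1.36-fold (1.06 to 1.74) and 28 dpa 1.23-fold (0.942 to 1.60). The direction at 17 and 28 dpa thus turned on these cells. Their median was 6486.5 UMIs against 12210 in the library. Markers of other classes were also detected in them: 9 of 9 for fibroblasts at 12388 CPM, 8 of 8 for keratinocytes at 2827 CPM, 7 of 9 for osteoblasts at 3053 CPM, 6 of 7 for pericytes at 1721 CPM, 5 of 10 for neutrophils at 14235 CPM and 5 of 11 for macrophages or monocytes at 1859 CPM. Vascular markers were detected too, 4 of 8 for endothelium at 577.9 CPM and 4 of 7 for smooth muscle at 364.3 CPM. The chondrocyte markers summed to 5113 CPM, and the part of these other classes in the cluster was not tested. A cluster from 1 library may reflect that library and not a cell type.

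Prg4, at chr1:150449412-150466165 (− strand, opposite to Tpr where they overlap), encodes lubricin, the proteoglycan that keeps cartilage surfaces and tendon sheaths gliding. Its level in mesenchymal cells was 23.4 CPM (22.0 to 24.96), 40.8 CPM (38.8 to 43.0), 82.3 CPM (79.5 to 85.3) and 273.9 CPM (268.2 to 279.6) from the unamputated library to the last. The 4 intervals did not overlap, and the 28 dpa level was 11.7-fold (10.9 to 12.49) that of the unamputated library. Prg4 had at least 1 UMI in 19.6% (18.2 to 20.98) of mesenchymal cells at 28 dpa and in 2.59% (1.92 to 3.41) of those of the unamputated library, with each cell thinned to 2000 UMIs. Thinning left out 80 and 21 shallower cells, and without it the shares were 35.8% and 11.2%. In macrophage or monocyte-like cells, which should lack Prg4, the thinned share at 28 dpa was 1.08% (0.662 to 1.66), with a median of 7098 UMIs per cell against 8364.5 in mesenchymal cells.

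The higher Prg4 level at 28 dpa was not restricted to 1 cluster. All 6 mesenchymal clusters with at least 50 cells in both libraries had more Prg4 at 28 dpa than in the unamputated library, by 2.49- to 43.9-fold, each with an interval above 1. The Cldn1 and Reln cluster among them had only 38 Prg4 UMIs over all libraries, 8.23 CPM. Kept cells outside the mesenchymal clusters also held more Prg4 at 28 dpa. Mesenchymal cells held 980 of 1028 Prg4 UMIs in the unamputated library and 8823 of 9053 at 28 dpa. The part of such background in the cluster levels was not tested. In the Ccn3 and Wnt2 fibroblast-like cluster, Prg4 was 17.6, 29.8, 28.6 and 169.7 CPM, so that the 28 dpa level stood 9.66-fold (7.75 to 12.2) above the unamputated one. The highest level was in an unnamed cluster led by Myoc, Clic5 and Pcolce2, of which Clic5 was among the joint lining markers. There Prg4 was 581 CPM at 17 dpa and 1666 CPM at 28 dpa. This cluster had 3, 13, 64 and 298 cells, and held 40.7% of the Prg4 UMIs of kept cells at 28 dpa.

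The level of Prg4 moved with the removal of doublets. The barcodes left out at the fixed rate held 72.6%, 3.55%, 82.4% and 58.9% of all Prg4 UMIs while holding 19.2%, 10.4%, 13.9% and 19.6% of all UMIs. Of barcodes with at least 100 Prg4 UMIs, 7, 0, 15 and 13 were so left out and 1, 3, 2 and 4 were kept. Under the automatic threshold, Prg4 in mesenchymal cells was 59.2, 38.6, 382.3 and 546.9 CPM. With no doublets removed it was 59.1, 37.7, 361.4 and 522.7 CPM. The 28 dpa level was then 9.23-fold (8.90 to 9.58) and 8.84-fold (8.52 to 9.17) that of the unamputated library, and the 12 dpa level was 0.651-fold (0.612 to 0.693) and 0.637-fold (0.599 to 0.677), below it and not above.

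**Figure D3:**
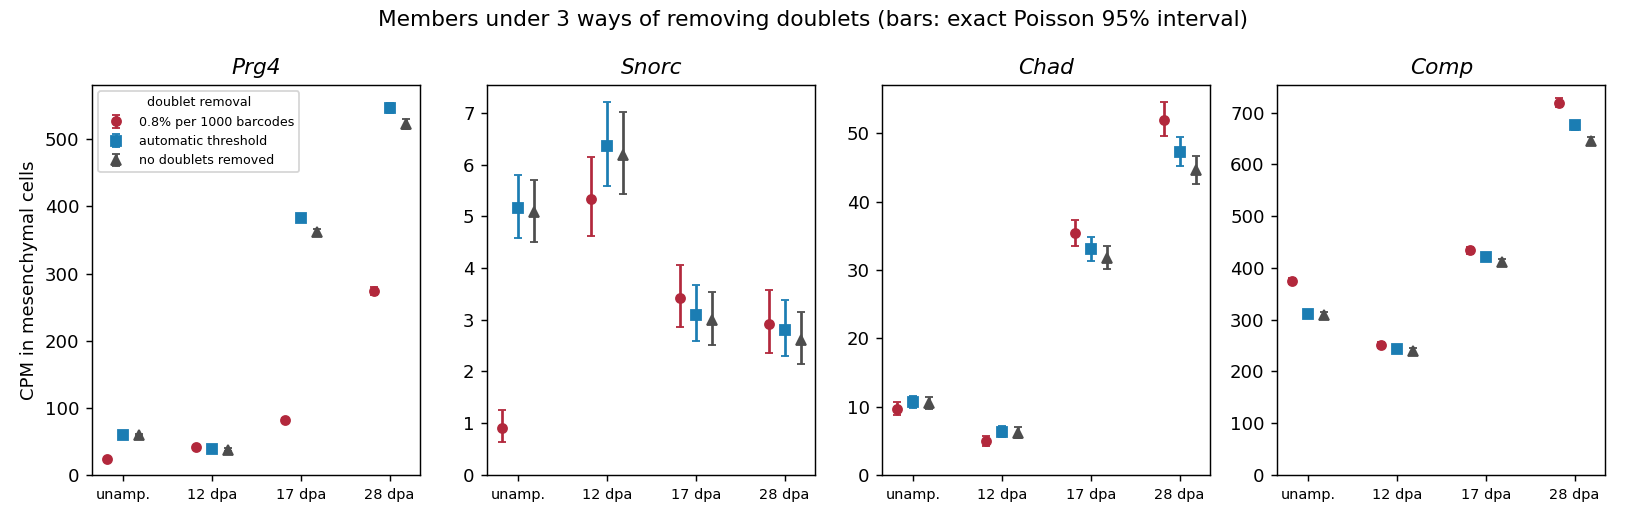
CPM in mesenchymal cells (y axes, linear, from 0) of Prg4, Snorc, Chad and Comp in the 4 libraries (x axis) under 3 ways of removing doublets (marker shapes), with exact Poisson 95% intervals. Prg4 at 17 dpa goes from 82.3 to 382.3 CPM and Snorc in the unamputated library from 0.909 to 5.16 CPM under the automatic threshold, while Chad and Comp keep their order across libraries.

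Under the automatic threshold, 29 cells formed a cluster named joint lining-like, with all 6 of its markers detected and Htra4, Col22a1 and Clic5 leading. It held 4, 0, 11 and 14 cells. Prg4 was 18225, 82140 and 70817 CPM in its unamputated, 17 and 28 dpa cells, and these cells held 33.2%, 62.4% and 49.3% of the Prg4 UMIs of all cells kept there. Other members had few UMIs in it: Acan had 0, 1 and 0, Comp 0, 0 and 9, and Chad 0, 1 and 0. Hapln1 had 2, 3 and 0 and Sox9 3, 1 and 0, while Cilp, Cilp2, Snorc and Matn3 had none. In so few cells these counts need not mean a low level. Hapln1 was at 31.9 and 23.8 CPM in the unamputated and 17 dpa cells, against 14.5 and 9.74 CPM in mesenchymal cells under that threshold. Sox9 was at 47.9 CPM in the unamputated cells, against 56.6 CPM in mesenchymal cells. The fixed rate had removed 4 of 4, 9 of 11 and 10 of 14 of these cells. Their median UMIs of 14422.5, 11203 and 8414.5 were each above the library medians of 12210, 8748 and 6915. Of the 29 cells none had a UMI of Ptprc or Pecam1, markers of blood and endothelial cells, and 28 had none of the 9 chondrocyte markers. Markers of other classes were detected: 7 of 9 for fibroblasts summed to 8930 CPM, 2 of 7 for pericytes to 994.2 CPM, 2 of 7 for osteoclasts to 580 CPM, 2 of 8 for keratinocytes to 568.1 CPM and 1 of 7 for Schwann cells to 535.6 CPM, beside 11318 CPM for the joint lining markers. Detected here means in at least 25% of the cells. Cells with none of a list numbered 0 for pericytes, 4 for osteoclasts, 4 for Schwann cells, 6 for keratinocytes and 15 each for macrophages or monocytes and lymphatic endothelium. The part of these classes in the cluster was not tested. In mesenchymal cells without this cluster and without a chondrocyte-like one, Prg4 was 38.9, 38.6, 141.9 and 273.1 CPM under that threshold.

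Cilp, at chr9:65265180-65280605 (+ strand), encodes cartilage intermediate layer protein, which is also made by fibroblasts under load. It was at 143.4 CPM (139.8 to 147.1), 232.2 CPM (227.3 to 237.3), 236.4 CPM (231.5 to 241.3) and 145.6 CPM (141.5 to 149.9), with 12 and 17 dpa overlapping each other and the unamputated library overlapping 28 dpa. The similar levels at 12 and 17 dpa were carried mainly by different clusters. At 12 dpa the Tagln and Acta2 cluster held 51.6% of Cilp UMIs, and at 17 dpa the unnamed cluster led by Fgl2, Itih5 and Luzp2 held 53.1%. That cluster had 62, 0, 190 and 100 cells, and Cilp in it was 1073 CPM in the unamputated library, 2561 CPM at 17 dpa and 1333 CPM at 28 dpa. The 17 dpa level there was 2.39-fold (2.22 to 2.57) the unamputated one.

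Levels by class are given next. Different clusters made up each class in the first and last libraries, so class levels mix cluster sizes with levels within clusters. Among tenocyte-like cells the Tagln and Acta2 cluster had 262 of 932 cells in the unamputated library and 8 of 549 at 28 dpa, and the Fibin and Fmod cluster 6 and 351. In the tenocyte-like class Chad was 10.1 CPM in the unamputated library and 255.9 CPM at 28 dpa, 25.2-fold (21.9 to 29.2). Comp was 418.8 and 2960 CPM, 7.07-fold (6.89 to 7.255), and Hapln1 20.8 and 141.6 CPM, 6.81-fold (6.05 to 7.68). Acan was 207.2 and 486.3 CPM, 2.35-fold (2.23 to 2.47). Over the 6 mesenchymal clusters of any class with at least 50 cells in both libraries, Acan was lower at 28 dpa in 5, of which 4 had an interval below 1. It was higher in 1. Hapln1 was lower in 4 of them, 1 with an interval below 1, and higher in 2. Neither gene had a cluster with an interval above 1. Among fibroblast-like cells the Ptn and Igf1 cluster had 289 and 28 cells, the Stmn2 and Slurp1 cluster 2 and 565, the Cyp2f2 and Ace cluster 20 and 386, and the Myoc and Clic5 cluster 3 and 298. In the fibroblast-like class Prg4 was 26.3 and 279.6 CPM, 10.6-fold (9.56 to 11.8), while Acan was 15.2 and 8.73 CPM, 0.575-fold (0.473 to 0.699). Among osteoblast-like cells the Limch1 and Tnfrsf19 cluster, which held the most Matn3 in the unamputated library, had 122 and 10 cells, and the Pdzrn4 and Mmp13 cluster 136 and 275. In the osteoblast-like class Comp was 297.4 and 1147 CPM, Prg4 16.9 and 149.5 CPM, and Matn3 19.4 and 0.719 CPM.

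**Figure D4:**
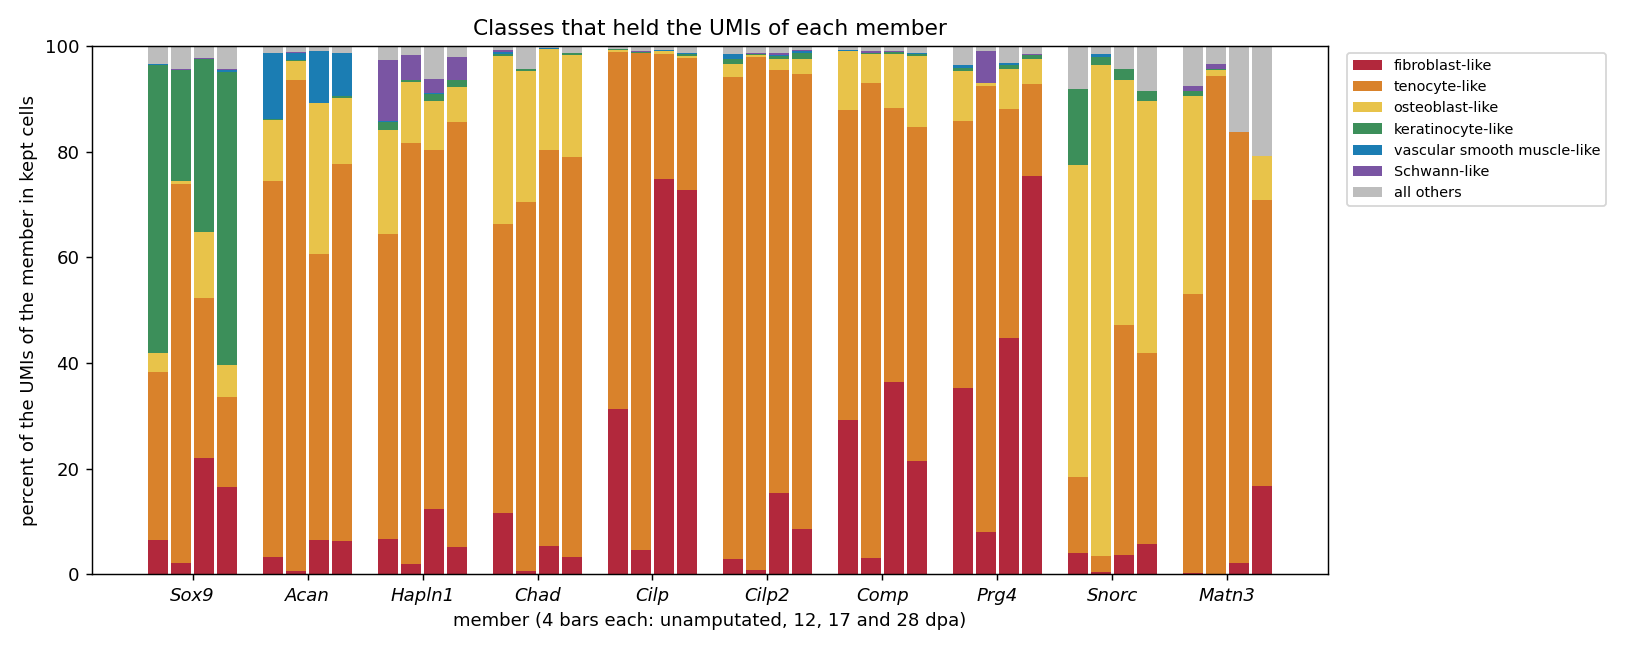
Percent of the UMIs of each member in kept cells (y axis) by cell class (colours), with 4 bars per member for the unamputated, 12, 17 and 28 dpa libraries. Sox9 is split between mesenchymal and keratinocyte-like cells, Acan is partly vascular smooth muscle-like, and Prg4 is mostly fibroblast-like at 28 dpa.

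The share of mesenchymal cells with a UMI, each cell thinned to 2000 UMIs, is given beside the levels. Comp was in 31.0%, 22.1%, 31.5% and 33.2% of cells, a similar share at 28 dpa and in the unamputated library. Chad was in 1.96%, 0.647%, 3.19% and 5.26%, and in at most 0.252% of macrophage or monocyte-like cells in any library. Acan was in 15.9%, 19.7%, 10.1% and 8.52%, and Sox9 in 9.04%, 9.38%, 6.64% and 5.68%. Cilp was in 14.4%, 23.8%, 14.0% and 13.2%, higher at 12 dpa alone, whereas its CPM was high at both 12 and 17 dpa. Without thinning the shares were 53.3%, 40.9%, 48.6% and 44.8% for Comp, 5.44%, 1.83%, 6.96% and 8.09% for Chad, and 39.7%, 56.1%, 26.9% and 25.5% for Cilp.

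Members were next compared in their pattern over 46 sums of mesenchymal clusters and libraries with at least 50 cells, among 10222 genes. These are descriptions, since sums share libraries and depth. Acan was most like Fmod, a tendon proteoglycan, with a Pearson r of 0.93, and Hapln1 was most like Acan, with 0.86. Cilp2 was most like Hapln1 at 0.79, Comp most like Tmem30b at 0.82, and Chad most like Scube1 at 0.82. Cilp stood apart from the other members, with r between -0.32 and 0.14, and was most like Wnt9a at 0.80. Snorc was most like Meltf at 0.77 and next like Col10a1, a gene of hypertrophic chondrocytes, at 0.75, but 5 cells held 82.9% of its mesenchymal UMIs, so its pattern rests on very few cells. Prg4 was most like Nr1d1, a clock gene, at 0.71, Sox9 most like Olfml3 at 0.77 and Matn3 most like Myo7a at 0.77.

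Other genes of cartilage and joint were counted at 28 dpa over 6 lists, beside the shares of all genes given above. Of 18 measured genes for chondroitin sulfate and hyaluronan synthesis, 1 was at least 2-fold higher and 3 lower: Chst15, a sulfotransferase, went from 5.598 to 12.48 CPM, Chsy3, a chain-extending synthase, from 240.3 to 96.5 CPM and Csgalnact1, which starts chains, from 131.2 to 57.6 CPM. Of 13 pericellular linkers, 1 was higher and 4 lower, with Prelp going from 113.0 to 582.2 CPM, Edil3 from 341.3 to 101.9 CPM and Ogn from 602.7 to 184.0 CPM. Of 9 proteases and inhibitors, none was higher and 2 were lower, the aggrecanase genes Adamts9, from 69.3 to 18.1 CPM, and Adamts4, from 33.2 to 11.3 CPM.

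Of 14 transcription factor genes, none was higher and 3 were lower, among them Runx2, the factor of bone and hypertrophic cartilage, from 616.8 to 256.7 CPM, and Erg, a factor of joint cartilage, from 29.2 to 12.3 CPM. Of 12 joint and cartilage signals, 3 were higher and 2 lower: Pthlh, the ligand that holds back hypertrophy, went from 19.5 to 45.4 CPM, Bmp2 from 12.8 to 27.5 CPM, the receptor gene Bmpr1b from 119.0 to 26.6 CPM and Tgfb3 from 120.7 to 53.9 CPM. Of 8 hyaluronan-linked genes, the receptor gene Lyve1, also a marker of lymphatic vessels and some macrophages, was higher, from 1.24 to 5.80 CPM, and Hmmr, which also acts in mitosis, was lower, from 11.004 to 2.08 CPM. Lyve1 reached 5 CPM only at 28 dpa. The macrophage or monocyte-like cluster led by Pf4 and Folr2 had 91 cells in the unamputated library and 1602 at 28 dpa, and its part in the Lyve1 level was not tested. Medians over the lists lay between -0.42 and 0.09, beside -0.11 for all genes.

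At 12 dpa no measured gene of the 6 lists was at least 2-fold higher, where 0.623% of all genes were. At least 2-fold lower were 5 of 9 proteases and inhibitors, 6 of 14 transcription factor genes, 2 of 12 signals and 1 gene in each of the other 3 lists, where 4.67% of all genes were. The medians of the proteases and inhibitors and of the transcription factor genes were -1.06 and -0.80, beside -0.19 for all genes. Osteoblast-like cells numbered 265 in the unamputated library and 7 at 12 dpa, and their part in these counts was not tested. At 17 dpa 3 genes were at least 2-fold higher, where 1.39% of all genes were, and they are named although the naming rule covers 28 dpa: Itih5, which binds hyaluronan, went from 248.1 to 540.4 CPM, Prelp from 113.0 to 243.0 CPM and Bmp2 from 12.8 to 30.8 CPM. At least 2-fold lower at 17 dpa were 2 of 13 pericellular linkers, none of 9 proteases and inhibitors and 1 gene in each of the other 4 lists, where 1.31% of all genes were.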

How the data were processed

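The deposited values were whole-number UMI counts per gene and cell barcode, made, per the file headers, with Cell Ranger 7.1.0, with mm10 as the genome build per the submitters' processing notes; the annotation and cell-calling settings are not given in the sources used here. The libraries were made with 10x 3′ v3 chemistry per the labels' protocols, so a UMI marks the 3′ end of a transcript. The 10 genes and the other lists were chosen with earlier results of these data known. Coordinates are from GENCODE M21 (GRCm38).

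Cells needed at least 500 genes and 1000 UMIs, with mitochondrial UMIs at or under 10%. Doublets were called by Scrublet score at 0.8% per 1000 barcodes, which took out 12.8%, 7.05%, 8.41% and 12.2% of the libraries. The automatic threshold would have removed 1.81%, 1.70%, 2.49% and 4.05%. Cells were clustered jointly with scanpy 1.11.5 and leidenalg 0.10.2 (2000 variable genes, 30 components, 15 neighbours, resolution 1) without the 10 genes, the other listed genes, sex-linked and mitochondrial genes. Clusters were named from markers of 20 classes, of which at least 3 had to be detected in 25% of cells. UMIs were summed per class and library and divided by all UMIs of those cells (CPM). A call was a ratio of at least 2 after adding 1 CPM, at 5 CPM or more in either library; no p-value was computed. Poisson, Clopper-Pearson and conditional binomial 95% intervals cover counting error only. The ratio and the call rule were also run on counts drawn from the unamputated mesenchymal sums, with the outcome not given here. Such a run checks the calculation and cannot show how far libraries of the same group would differ. Every one of the 10 genes is named; of each other list, the 2 highest and 2 lowest past 2-fold at 28 dpa are. Levels are not compared between genes.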

Additional observations from a re-analysis of the deposited data

Results flagged for a closer look

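Xist was at 458 CPM in the kept cells of the 12 dpa library, above the other libraries, although the labels give pooled sexes for all 4. It was noted because it lies outside the 10 genes and differs from the unamputated library.

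Prg4 was at 971.3 CPM in the barcodes not kept at 17 dpa and at 484.2 CPM in those not kept at 28 dpa, far above its level in kept cells of 42.1 and 115.1 CPM. It was noted as a signal in data outside the main measurement. In the unamputated and 12 dpa libraries the barcodes not kept had 51.7 and 4.51 CPM. Nearly all of it at 17 dpa, 16902 of 17205 UMIs, was in barcodes removed as doublets, and 15 barcodes there had at least 100 Prg4 UMIs each. Whether these are single cells was not tested.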

How the results depend on the processing

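Each of the 30 ratios was recomputed under 17 alternatives, 2 of them chosen after seeing the data. The sign was the same in every alternative for 19 ratios, and 5 stayed past 2-fold in all of them: Chad and Prg4 at 17 and 28 dpa and Matn3 at 28 dpa. Of 510 recomputed log2 ratios, 339 lay within the counting interval of the main fold or equalled the main log2 ratio. That interval was taken without the added 1 CPM, so for genes of low level even the main log2 ratio can lie outside it. The ratio of Snorc at 12 dpa turned to -0.24 (log2) without the 5 cells with most UMIs. Cilp2 at 28 dpa ranged from 0.72 to 1.40 and Comp at 28 dpa from 0.93 to 1.42.

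The count of members higher at 12 dpa was 1 and became 0 with no doublets removed, with the automatic threshold, with the mean of single cells, with a pseudocount of 5 CPM, with a minimum of 20 CPM and without the 5 highest cells, and 2 over all kept cells. The count higher at 28 dpa was 3 and lay between 2 and 4: Comp passed 2-fold in 7 of 17 alternatives, the automatic threshold and no removal of doublets among them, and Cilp2 in 15 of 17. The count lower at 12 dpa was 0 and became 1 with the mean of single cells and without the 5 highest cells. The count lower at 17 dpa was 1 and became 0 with a pseudocount of 5 CPM, a minimum of 20 CPM and over all kept cells. The count lower at 28 dpa was 1 and became 0 with the minimum of 20 CPM and over all kept cells. The lost lower calls are of Matn3, which is under the minimum with 20 CPM and, at 2.15 CPM in the unamputated library, also over all kept cells; its log2 ratio at 28 dpa lay between -3.28 and -1.05 in all 17 alternatives, and at 17 dpa it was -0.93 with a pseudocount of 5 CPM and -0.95 over all kept cells. The cause of the other moves was not tested. Depth limits Snorc and Matn3 most, with 38 and 276 UMIs in the unamputated library. No paired analysis was possible because each group held 1 library.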

Other observations

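Hapln1, the link protein gene, had 25.6, 17.3, 14.6 and 48.3 CPM in Schwann-like cells while macrophage or monocyte-like cells had at most 0.631 CPM. The Schwann-like values rest on 92, 31, 11 and 39 UMIs.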
